A study of Mus musculus with 24 samples.

Results

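The 39 genes described here encode enzymes that break down amino acids or move their one-carbon units. They were picked by symbol from a table of 56205 genes counted by RNA-Seq in mouse liver, and all 39 symbols were matched. The libraries were made from whole livers of C57BL/6J mice, young adult when the diets began. 12 libraries, named FFD, came from mice fed a high fat diet for 20 weeks, and 12, named FFD_Ctrl, from mice on control diet for the same time. The study's methods say that both sexes were used. No library's sex is given in the labels. Each library held between 14468418 and 22112552 counts. Hepatocyte markers made up 62014 to 168921 CPM (counts scaled to a common library size) in every library, which fits the labelled tissue.

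The liver clears most amino acids that are not built into protein. Transaminases and dehydratases remove or pass on the amino group, and the carbon skeletons go on to glucose, ketones or the citric acid cycle. Methionine is turned into S-adenosylmethionine, the methyl donor of the cell, and the one-carbon units that glycine, serine and histidine release are carried by folate. Most of these enzymes are made chiefly by hepatocytes, and several, among them tyrosine aminotransferase, tryptophan dioxygenase and serine dehydratase, are textbook targets of glucocorticoids, glucagon and insulin.

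In the FFD livers 17 of the 39 genes fell and 0 rose, with 0.01 as the limit on the adjusted p and 0.5 on the size of the log2 fold change in edgeR's quasi-likelihood test. Across all 17913 genes tested, 4.99% were lower and 13.2% were higher by the same rule. At an unadjusted p below 0.05 by edgeR, 33 of the 39 were lower and 0 were higher. Of all 17913 genes 8568 passed that limit, counting both directions together. DESeq2 and limma-voom also called 0 of the 39 higher. The 39 log2 fold changes ran from −1.39 to −0.01, with a median of −0.50, beside −0.03 for all genes. All 39 lay below 0 on TMM-scaled values, where 52.8% of all genes did, but 31 did with library totals and 17 when the counts were scaled to hepatocyte markers. Those scalings moved the median of all genes to 0.26 and 0.57. Relative to that median the genes stood at −0.47, −0.46 and −0.47 under TMM, library totals and hepatocyte markers. A change of scaling shifts all genes by nearly the same amount, so this distance could hardly move and does not test the scaling. The counts of calls did move. With library totals 7 were lower and 0 higher (1.26% and 21.4% of all genes), 2 being higher at an unadjusted p below 0.05. At that limit 8777 of all genes passed in either direction. With hepatocyte scaling 4 were lower and 2, *Amt* and *Bckdhb*, higher (0.631% and 42.2% of all genes). At an unadjusted p below 0.05 these counts were 7 and 8, where 11751 of all genes passed in either direction. The 4 that were lower under every scaling were *Got1*, *Gnmt*, *Tat* and *Agxt*. *Ahcy*, *Hal* and *Sds* were called lower with TMM and library totals but not with hepatocyte scaling. *Aass*, *Cth*, *Dbt*, *Ftcd*, *Haao*, *Kynu*, *Mat1a*, *Prodh2*, *Sdsl* and *Tdo2* were called lower with TMM but with neither of the others.

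**Figure D1:**
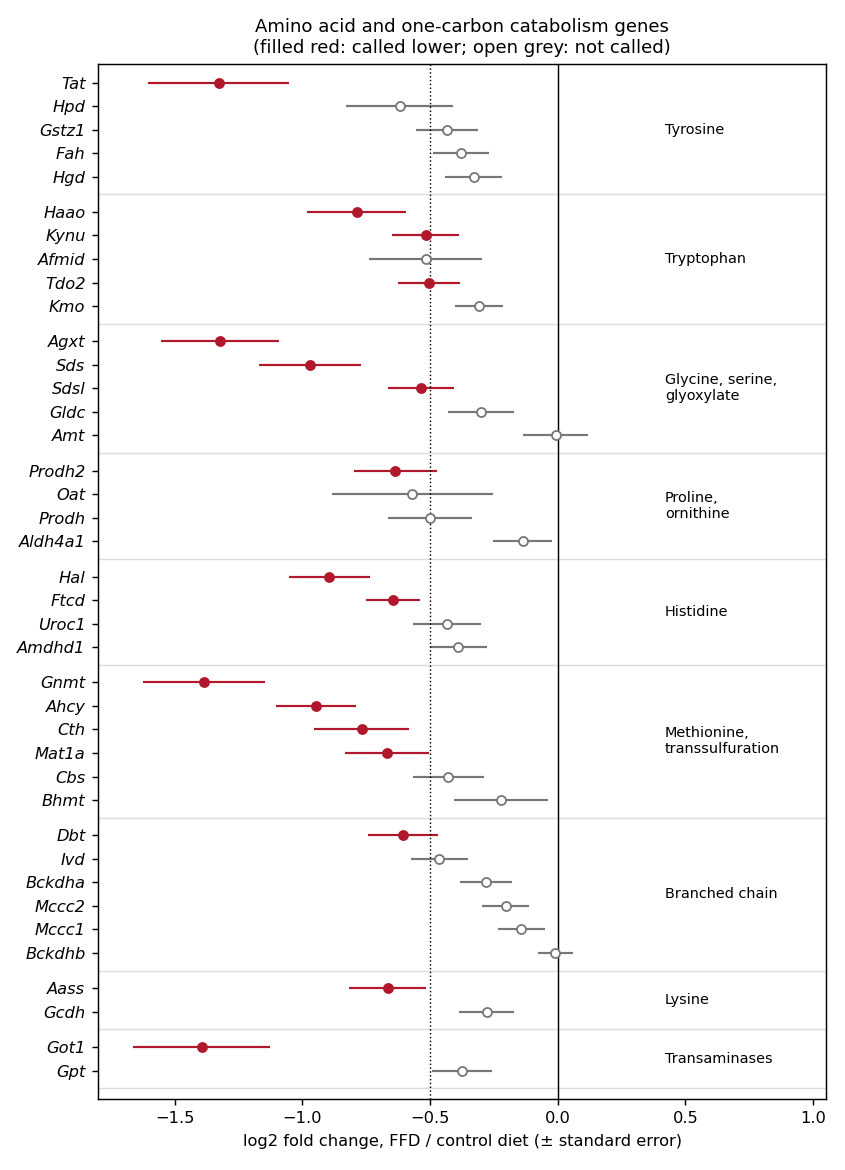
Log2 fold change of each gene (x axis, FFD over control diet, TMM-scaled, with its standard error), grouped by pathway on the y axis, with 12 libraries per diet. The points run from −1.39 for Got1 to −0.01 for Amt and Bckdhb; red filled points mark the 17 genes called lower, and the dotted line marks −0.5.

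Whole liver holds many cell types, so fewer cells of a type and less RNA per cell cannot be told apart here. Of 10 hepatocyte markers 6 were lower, with a list median of −0.62, and their summed level ran from 62014 to 150492 CPM in FFD and from 114859 to 168921 in control. Of 8 macrophage markers 6 were higher (summed 656 to 1479 against 150 to 688 CPM), as were 6 of 8 stellate cell and fibroblast markers (364 to 966 against 131 to 430 CPM) and 5 of 6 cholangiocyte markers (31.6 to 887 against 27.3 to 131 CPM). Of the other lists, 1 of 6 sinusoidal endothelial markers was higher (131 to 330 against 128 to 291 CPM), and 0 of 6 T cell markers passed in either direction by edgeR, 1 being higher and 1 lower at an unadjusted p below 0.05 (2.29 to 7.78 against 2.14 to 9.69 CPM). Markers that were at 0 in some library were *Cftr*, *Cd3g*, *Cd8a* and *Trac*. Among zonated hepatocyte markers, 3 of 8 periportal and 0 of 8 pericentral ones were lower by edgeR, and 4 of 8 in each list at an unadjusted p below 0.05. The part of these cell types in the results on amino acid genes was not tested.

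The libraries fell into 2 sets of 12 by their counts of *Xist*, the RNA that coats the inactive X chromosome. Replicates 1 to 6 of both diets had 2664 to 6285 *Xist* counts, and replicates 7 to 12 had 0 to 3. *Ddx3y*, on the Y chromosome, was at 0 counts in all 12 libraries of the first kind and at 448 to 1016 in all 12 of the second. Each set held 6 libraries per diet. A pair of control libraries also stood apart, both from the set low in *Xist*. Control replicate 11 was the lowest control for 25 of the 39 genes (6.02% of all genes), and control replicate 10 was the highest for 20 of them (23.9% of all genes). Replicate 10 had the lowest TMM factor, 0.679, which raises its scaled values. Without scaling the 39 genes took 2.48% of its counts, beside a control median of 2.39%. Replicate 11, with a factor of 0.956, had the lowest control share, 1.69%. Without control replicates 10 and 11, 14 of the 17 calls remained, the lost ones being *Kynu*, *Sdsl* and *Tdo2*. With all libraries, no gene of the 39 separated the diets fully, a background of 0.402% over all genes.

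Together the 39 genes took 1.40% to 2.39% of a library's counts in FFD (median 1.79%) and 1.69% to 2.94% in control (median 2.39%). Per kilobase of exon, the highest control levels were those of *Gnmt* (1679 CPM per kb), *Mat1a* (1208), *Hpd* (961) and *Ahcy* (924), and the lowest was that of *Mccc1* (4.82). All further levels are TMM-scaled CPM per gene, given as the lowest, median and highest of 12 libraries.

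A transaminase had the largest log2 fold change of the 39. *Got1* (chr19:43499752-43524605, GRCm38, minus strand), the cytosolic aspartate aminotransferase of the malate-aspartate shuttle, was at 113, 206 and 436 CPM in FFD and at 212, 504 and 1438 CPM in control. All 12 FFD libraries lay under the control median, and 11 lay under the lowest control once replicate 11 was set aside. *Got1* fell by 1.39 (log2, SE 0.27, adjusted p = 0.000208), to 38.0% of control. *Gpt*, alanine aminotransferase, had a log2 fold change of −0.38 (SE 0.12, adjusted p = 0.0126) and was not called.

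In the methionine cycle and transsulfuration 4 of 6 genes fell. *Gnmt* (chr17:46725664-46729168, minus strand), which uses up S-adenosylmethionine by methylating glycine, was at 428, 670 and 1285 CPM in FFD and at 988, 1838 and 5214 CPM in control. The top control value was replicate 10, and the next highest was 2682 CPM. *Gnmt* fell by 1.38 (SE 0.24, adjusted p = 6.71e-05). *Ahcy* (chr2:155059310-155074497, minus strand), which hydrolyses S-adenosylhomocysteine to homocysteine, was at 856, 1314 and 1974 CPM in FFD and at 1528, 2656 and 3690 CPM in control. It fell by 0.95 (SE 0.16, adjusted p = 4.72e-05), with every FFD library under the control median.

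*Mat1a*, the hepatic S-adenosylmethionine synthetase, was at 1533, 2609 and 4123 CPM in FFD and at 2590, 4013 and 5908 CPM in control. It fell by 0.67 (SE 0.16, adjusted p = 0.00219), and 11 of 12 FFD libraries lay under the control median. *Cth*, cystathionine gamma-lyase, which releases cysteine, was at 93.6, 149 and 306 CPM against 153, 255 and 460 CPM, and fell by 0.77 (SE 0.19, adjusted p = 0.00196). The ranges overlapped for both genes. *Cbs*, which joins homocysteine to serine, had a log2 fold change of −0.43 (adjusted p = 0.0162). *Bhmt*, which remethylates homocysteine with betaine, had one of −0.22 (adjusted p = 0.354).

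Of the 5 glycine, serine and glyoxylate genes 3 fell. *Agxt* (chr1:93135240-93145421, plus strand), the peroxisomal enzyme that turns glyoxylate into glycine, was at 71.2, 132 and 241 CPM in FFD and at 106, 343 and 566 CPM in control. It fell by 1.32 (SE 0.23, adjusted p = 8.11e-05). The lowest control was replicate 11, and every FFD library lay under the other 11 controls. *Sds* (chr5:120476526-120483932, plus strand), serine dehydratase, was at 161, 272 and 533 CPM against 313, 489 and 963 CPM, and fell by 0.97 (SE 0.20, adjusted p = 0.000454). In 9 of 12 FFD libraries it lay under the lowest control.

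Its neighbour *Sdsl* was much less abundant, at 9.66, 12.1 and 15.3 CPM in FFD and at 12.2, 17.2 and 32.5 CPM in control. It fell by 0.54 on TMM-scaled values (SE 0.13, adjusted p = 0.00171), but its log2 fold change turned positive, at 0.11, with hepatocyte scaling. Without control replicate 10 it stood at −0.43 and was not called, nor was it by limma-voom (−0.47). *Gldc* and *Amt* are parts of the mitochondrial glycine cleavage system, and neither was called. *Gldc* had a log2 fold change of −0.30 (adjusted p = 0.0638). *Amt* was at 29.6, 39.7 and 53.5 CPM in FFD and at 28.0, 38.8 and 61.5 CPM in control, a log2 fold change of −0.01 (SE 0.13, adjusted p = 0.967), and the diets overlapped throughout.

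Only 1 of 5 tyrosine genes passed both thresholds. *Tat* (chr8:109990437-109999803, plus strand), tyrosine aminotransferase, the first step of the pathway, was at 183, 315 and 843 CPM in FFD and at 424, 790 and 2299 CPM in control. It fell by 1.33 (SE 0.27, adjusted p = 0.000471), and 11 of 12 FFD libraries lay under the control median. The later steps had log2 fold changes nearer 0. *Hpd*, which makes homogentisate, had a log2 fold change of −0.62 (SE 0.21, adjusted p = 0.0205), and fell by 0.69 without control replicate 11, by 0.61 with DESeq2 and by 0.73 with the library set as a covariate (adjusted p = 0.00123). *Gstz1*, which isomerises maleylacetoacetate, and *Fah*, which splits fumarylacetoacetate, passed on p (adjusted p = 0.00641 and 0.00688) with log2 fold changes of −0.43 and −0.38, under the fold threshold. *Hgd*, homogentisate dioxygenase, was at −0.33 (adjusted p = 0.0208).

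In the kynurenine pathway of tryptophan 3 of 5 genes fell. *Haao*, which opens the ring of hydroxyanthranilate on the way to NAD, was at 204, 295 and 490 CPM in FFD and at 379, 497 and 1418 CPM in control, the top value again being control replicate 10. It fell by 0.79 (SE 0.20, adjusted p = 0.00235). With library totals it stood at −0.47 and with hepatocyte scaling at −0.25, and it was called with neither. *Kynu*, kynureninase, was at 43.5, 52.2 and 78.8 CPM against 51.1, 74.8 and 121 CPM, and fell by 0.52 (SE 0.13, adjusted p = 0.00289). With hepatocyte scaling its log2 fold change turned positive, at 0.02. *Tdo2*, tryptophan dioxygenase, the entry step, was at 639, 748 and 940 CPM against 654, 1005 and 1575 CPM, and fell by 0.50 (SE 0.12, adjusted p = 0.00162). Its log2 fold change also turned positive with hepatocyte scaling, at 0.10. *Kynu* and *Tdo2* stood at the fold threshold. *Kynu* lost its call in 7 of the 24 fits that each left out 1 library (FFD replicates 6, 9, 10 and 11, control replicates 8, 9 and 10), with values from −0.57 to −0.45 over all 24. *Tdo2* lost it in 10 (FFD replicates 4, 6, 8, 9, 10 and 11, control replicates 3, 5, 9 and 10), with values from −0.55 to −0.44. It was also not called by DESeq2, limma-voom, DESeq2 size factors, without the filter or by filterByExpr, at −0.49 to −0.47. *Afmid*, kynurenine formamidase, and *Kmo*, kynurenine monooxygenase, had log2 fold changes of −0.52 (adjusted p = 0.0641) and −0.31 (adjusted p = 0.0113). With the library set, described above, as a covariate *Afmid* fell by 0.65 (adjusted p = 0.000243), and *Kynu* stood at −0.50 and was not called.

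Of 4 histidine genes 2 fell, the first and the last in the pathway. *Hal* (chr10:93488768-93519304, plus strand), histidine ammonia-lyase, was at 109, 182 and 284 CPM in FFD and at 226, 329 and 472 CPM in control. It fell by 0.90 (SE 0.16, adjusted p = 8.98e-05), and without control replicate 11 the diets did not overlap. *Agxt* was the only other gene of the 39 with that property, which 0.625% of all genes had. *Ftcd*, which hands the formimino group of histidine to folate, was at 228, 290 and 406 CPM against 371, 485 and 697 CPM, and fell by 0.65 (SE 0.11, adjusted p = 3.95e-05). In 10 of 12 FFD libraries *Ftcd* lay under the lowest control. *Uroc1*, urocanase, and *Amdhd1*, the enzyme after it, had log2 fold changes of −0.43 (adjusted p = 0.0111) and −0.39 (adjusted p = 0.00729).

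Proline and ornithine genes gave 1 call in 4. *Prodh2*, which oxidises hydroxyproline, was at 119, 193 and 269 CPM in FFD and at 195, 292 and 543 CPM in control, and fell by 0.64 (SE 0.16, adjusted p = 0.003). Every FFD library lay under the control median. *Oat*, ornithine aminotransferase, had a similar log2 fold change of −0.57 with a wider error (SE 0.31, adjusted p = 0.154). Its levels were 209, 586 and 1520 CPM in FFD and 489, 1084 and 1941 CPM in control, and 6 of 12 FFD libraries lay under all controls. *Prodh*, proline dehydrogenase, was at −0.50 (SE 0.16, adjusted p = 0.0175), and was called without FFD replicate 2 or 5, with −0.58 as the lowest value of the 24 fits. It fell by 0.57 by limma-voom and with the library set as a covariate (adjusted p = 0.00495). *Aldh4a1*, which acts after both proline enzymes, was at −0.14 (adjusted p = 0.361).

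The branched-chain genes had the group median nearest 0, a log2 fold change of −0.24, and 1 of 6 was called. *Dbt*, the acyltransferase core of the branched-chain ketoacid dehydrogenase, was at 31.6, 43.8 and 69.8 CPM in FFD and at 47.6, 71.7 and 85.7 CPM in control, and fell by 0.61 (SE 0.14, adjusted p = 0.00113). The decarboxylase subunits of the same complex were not called. *Bckdha* had a log2 fold change of −0.28 (adjusted p = 0.0279). *Bckdhb* was at 71.4, 87.3 and 94.5 CPM against 75.1, 82.2 and 114 CPM, a change of −0.01 (SE 0.07, adjusted p = 0.929). *Ivd*, isovaleryl-CoA dehydrogenase of leucine breakdown, passed on p (adjusted p = 0.002) at −0.46. It was called without FFD replicate 4, FFD replicate 5 or control replicate 11, with −0.51 as the lowest value of the 24 fits. The methylcrotonyl-CoA carboxylase subunits *Mccc1* and *Mccc2* were at −0.14 and −0.20 (adjusted p = 0.22 and 0.0831). For lysine, *Aass*, which carries out the first steps, was at 161, 211 and 349 CPM against 216, 364 and 557 CPM and fell by 0.67 (SE 0.15, adjusted p = 0.00108). *Gcdh*, glutaryl-CoA dehydrogenase, was at −0.28 (adjusted p = 0.041).

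**Figure D2:**
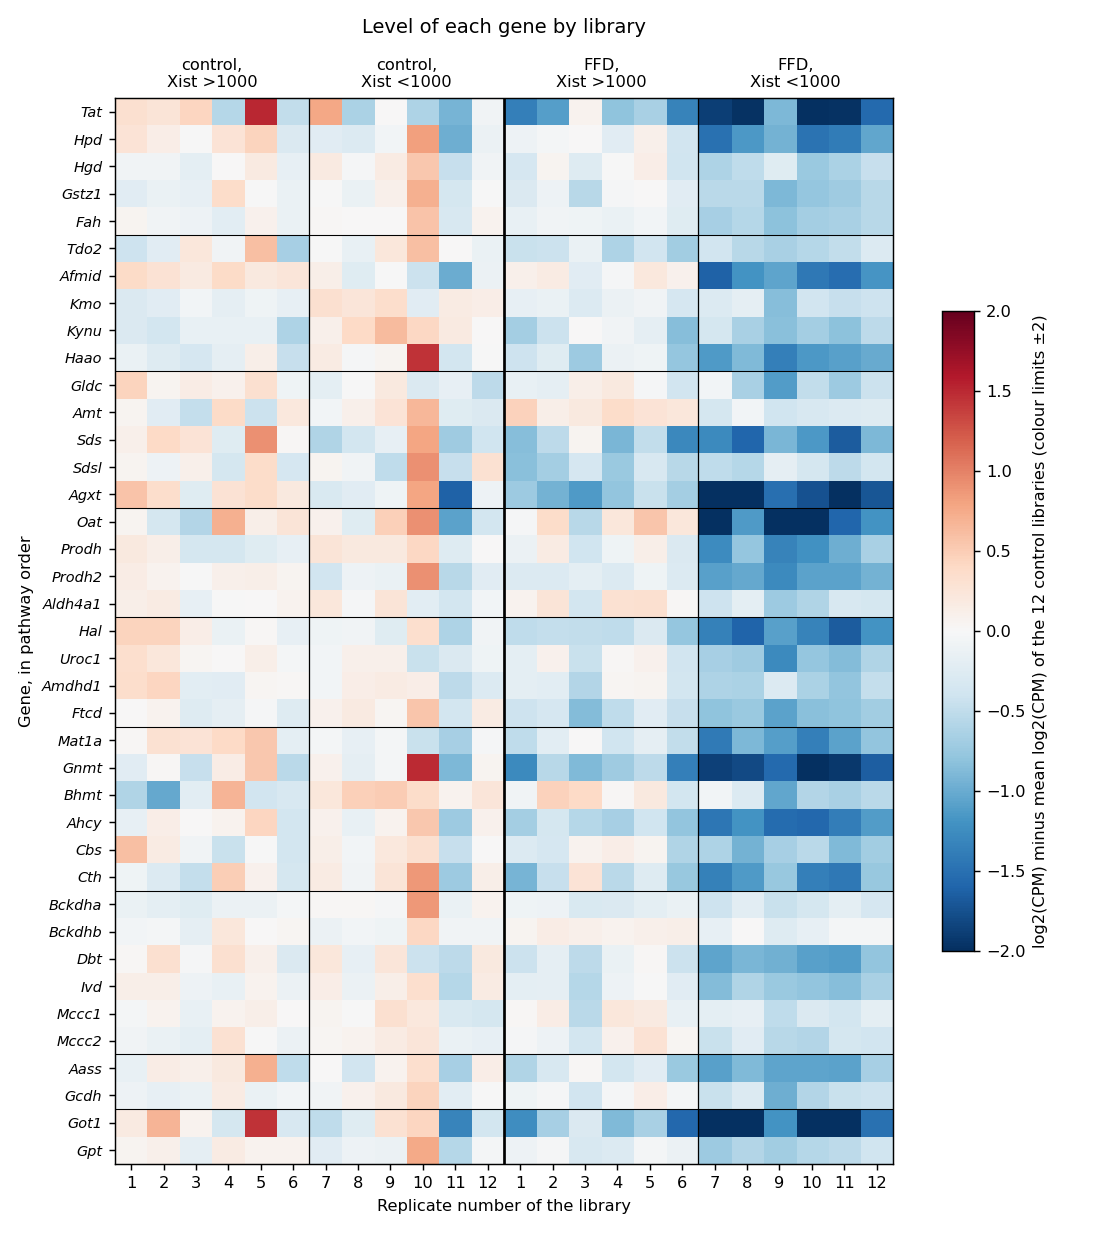
Log2 CPM of each gene (rows, in pathway order) in each of the 24 libraries (columns, by diet, Xist set and replicate number), relative to the mean log2 CPM of the 12 control libraries. The darkest blue lies in the 6 FFD libraries with Xist below 1000 counts, and control replicates 10 and 11 stand out as red and blue columns.

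Exons of 4 of the 39 genes share over 10% of their bases with another gene in GENCODE M21, and reads there may be credited to either. These are *Bckdha* (61.7% shared with *B3gnt8*, opposite strand), *Afmid* (44.2%, a locus on its own strand), *Aldh4a1* (32.5%, likewise) and *Sds* (21.3%, *Plbd2*, opposite strand). The strand setting used for counting is not given in the sources used here, so reads of opposite-strand partners cannot be told apart.

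The diet differences were unequal between the sets of libraries. In the 12 libraries with *Xist* above 1000 counts 3 of the 39 genes fell, *Agxt*, *Ahcy* and *Hal*, and 0 rose (0.896% and 2.91% of all genes). At an unadjusted p below 0.05, 15 were lower and 1 higher, where 5097 of all 18071 genes tested passed in either direction. The median log2 fold change of the 39 was −0.21. In the 12 libraries with *Xist* below 1000 counts 29 fell, and 0 rose (7.89% and 14.3% of all genes). Here 38 were lower and 0 higher at an unadjusted p below 0.05, where 8427 of all 18122 genes tested passed in either direction. The median of the 39 was −0.80. The medians of all genes were 0.01 and −0.03. Within the first set 3 genes separated the diets fully (2.39% of all genes), and within the second 25 did (9.66%). The 39 genes took 1.89% to 2.39% of counts in FFD and 2.17% to 2.94% in control in the first set, and 1.40% to 1.68% and 1.69% to 2.54% in the second.

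Tested directly as a diet-by-set interaction in edgeR at an adjusted p of at most 0.05, the effect differed for 19 of the 39 genes, beside 10.2% of all genes. All 19 were more negative in the set low in *Xist* (4.04% of all genes), and the interaction of the 39 had a median of −0.59, beside −0.03 for all genes. Of the 71 other pathway genes described below 24 passed, 23 of them below 0, with a list median of −0.46. Of 10 hepatocyte markers 2 passed, both below 0, with a list median of −0.42. With library totals 5 of the 39 passed, *Bhmt*, *Haao*, *Kynu*, *Oat* and *Prodh*, where 17.9% of all genes did. The median was then −0.22 beside 0.32 for all genes, and the distance between them was −0.55, against −0.56 with TMM. Scaling shifts all genes nearly alike, so this distance could hardly move either.

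*Oat* had the largest interaction, −1.85 (log2, SE 0.39, adjusted p = 0.00347). With *Xist* above 1000 counts it was at 701, 1205 and 1520 CPM in 6 FFD libraries and at 684, 1094 and 1684 CPM in 6 controls. With *Xist* below 1000 it was at 209, 294 and 470 CPM in FFD and at 489, 982 and 1941 CPM in control. The diets overlapped fully in the first set and not at all in the second, where *Oat* fell by 1.76 (SE 0.31, adjusted p = 0.00051).

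*Prodh* had the same form, with an interaction of −1.19 (SE 0.20, adjusted p = 0.000483). Its range was 191 to 284 CPM in FFD and 198 to 290 CPM in control in the first set, and 100 to 161 CPM and 212 to 338 CPM in the second. *Bhmt* had log2 fold changes of 0.36 (SE 0.23, adjusted p = 0.32) and −0.80 (SE 0.16, adjusted p = 0.0015) in the first and second set, and an interaction of −1.16. *Gnmt*, by contrast, stood below 0 in both, at −0.80 (SE 0.19, adjusted p = 0.013) and −2.07 (SE 0.32, adjusted p = 0.00017), with an interaction of −1.28.

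For *Got1*, *Tat*, *Agxt* and *Sds* the interaction did not pass. It did for *Ahcy* (−0.79, adjusted p = 0.024) and *Hal* (−0.61, adjusted p = 0.0483) by the same edgeR test. In the first set *Got1* was at −1.24 (SE 0.29, adjusted p = 0.0108) and *Tat* at −1.19 (SE 0.32, adjusted p = 0.024), and neither was called there. In the second they fell by 1.62 (SE 0.27, adjusted p = 0.00035) and 1.53 (SE 0.29, adjusted p = 0.000915). The interactions were −0.39 (SE 0.42, adjusted p = 0.618) and −0.35 (SE 0.46, adjusted p = 0.703), errors that leave room for differences of either sign. *Agxt* was lower in both sets, by −1.04 (SE 0.14) and −1.77 (SE 0.29), and *Sds* stood at −0.89 (SE 0.21, adjusted p = 0.0135, not called) and −1.05 (SE 0.24, adjusted p = 0.00342). The marker sums moved with the sets as well. Hepatocyte markers in FFD ran from 100299 to 150492 CPM with *Xist* above 1000 counts and from 62014 to 79314 CPM below it, and cholangiocyte markers from 31.6 to 176 CPM and from 258 to 887 CPM. Their part in the unequal effects was not tested.

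**Figure D3:**
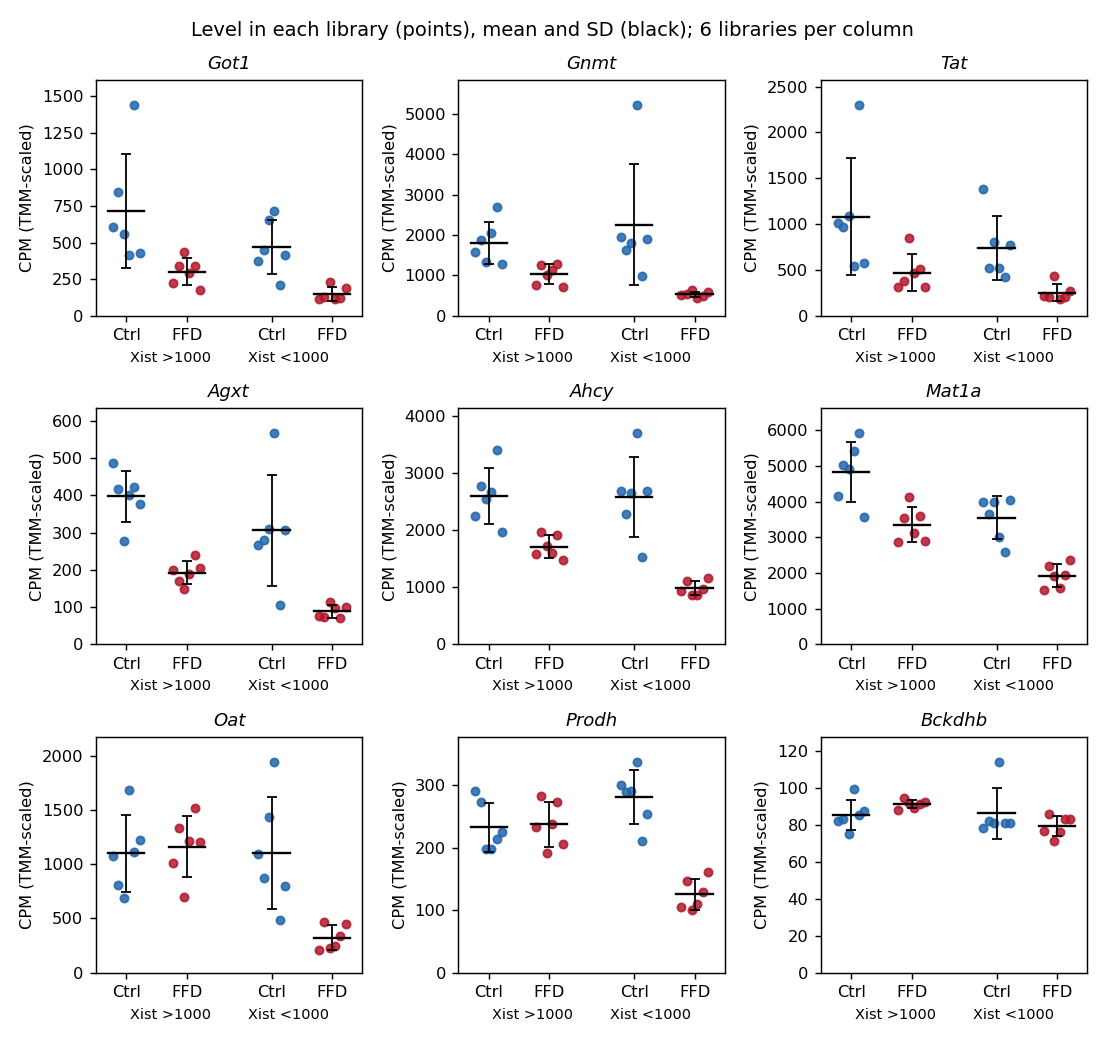
TMM-scaled CPM (y axis, from 0) of 9 genes in each library, with control (blue) and FFD (red) side by side within the libraries above and below 1000 Xist counts; black lines give the mean and SD of 6 libraries. The means of Got1 and Tat are lower in FFD in both sets, and those of Oat and Prodh below 1000 counts, where FFD Oat ends at 470 CPM and control starts at 489.

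**Figure D4:**
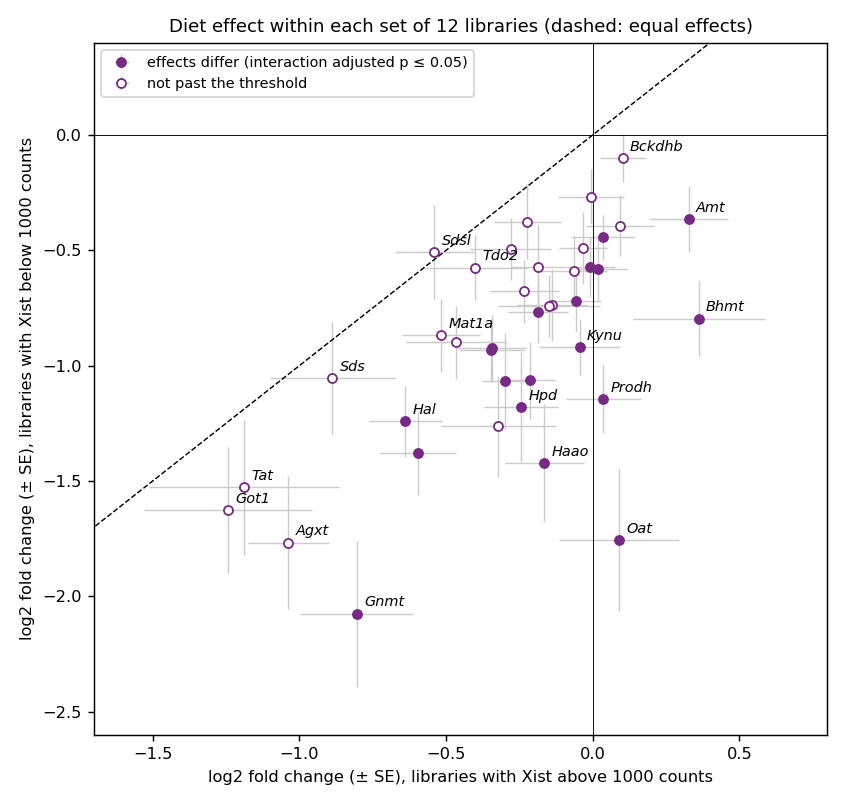
Log2 fold change (FFD over control, with SE) of each of the 39 genes in the 12 libraries with Xist above 1000 counts (x axis) and in the 12 below (y axis). 38 of 39 points lie under the dashed line of equal effects, and filled points mark the 19 genes whose interaction passed.

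The other genes of these pathways were less uniform. Of 73 further genes of the same pathways and of the folate cycle 71 were tested, and 12 fell (16.9%, beside 4.99% of all genes) and 6 rose (8.45%, beside 13.2%), with a median log2 fold change of −0.26. With library totals 4 were lower and 11 higher (1.26% and 21.4% of all genes), and with hepatocyte scaling 0 and 18 (0.631% and 42.2% of all genes), again by edgeR. Hepatocyte scaling gave 1 and 36 at an unadjusted p below 0.05, where 11751 of all genes passed in either direction.

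*Qdpr*, which recycles tetrahydrobiopterin, was at 210, 279 and 483 CPM in FFD and at 388, 486 and 1370 CPM in control and fell by 0.82 (SE 0.19). *Gchfr*, which regulates the making of that cofactor, fell by 0.91. *Gcat*, *Hao1* and *Shmt1*, of threonine, glycolate and serine-glycine metabolism, fell by 0.87, 0.80 and 0.76, *Dmgdh* and *Aldh1l1*, which pass one-carbon units through folate, by 0.75 and 0.72, and *Acadsb*, of isoleucine breakdown, by 0.75. *Kyat1*, *Kyat3*, *Pemt* and *Fpgs* fell by 0.50 to 0.65.

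Of the 6 that rose, 5 belong to synthesis of serine or proline or to the mitochondrial folate pathway. *Mthfd2* and *Mthfd1l*, mitochondrial enzymes that make formate from one-carbon folates, were at 1.28, 2.88 and 5.49 CPM against 0.442, 1.10 and 2.21 CPM and at 1.74, 4.77 and 9.17 CPM against 0.102, 1.79 and 3.41 CPM. They rose by 1.37 (SE 0.28) and 1.51 (SE 0.31). *Psat1*, of serine synthesis, rose by 1.52 (SE 0.26), and *Aldh18a1* and *Pycr1*, of proline synthesis, by 1.45 (SE 0.23) and 1.21 (SE 0.31). All 5 were low in abundance, with control medians between 0.231 and 1.79 CPM, beside 38.8 CPM for *Amt*. *Csad*, of taurine synthesis, rose by 0.81. *Phgdh*, the first enzyme of serine synthesis, had a log2 fold change of 1.57 and missed the threshold (adjusted p = 0.0117). The 6 were called higher under library totals and hepatocyte scaling too.

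**Figure D5:**
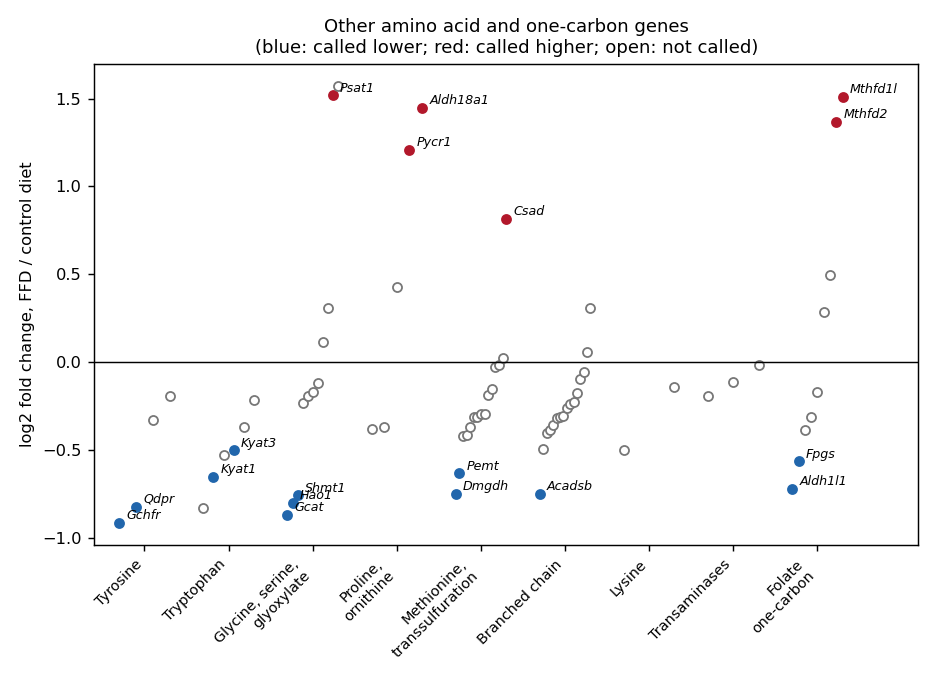
Log2 fold change (y axis, FFD over control) of the 71 tested other genes by pathway (x axis); blue points were called lower, red points higher, open points neither. The 6 red points lie between 0.81 and 1.52, and the 12 blue points between −0.91 and −0.50.

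Promoter windows are shown for the 4 genes lower under every scaling and for *Amt*, whose log2 fold change over all libraries was −0.01 with TMM. The diet effect on *Amt* differed between the library sets by the edgeR interaction (−0.70, adjusted p = 0.0302). Windows of 250 bases upstream of the RefSeq start were read on both strands for CCAAT (the CCAAT box) and AGGTCA (the half-site of many nuclear receptors). The sequences are RefSeq's on GRCm38.p6, in the direction of the gene, with matches to either motif or its reverse complement in capitals.
Got1, chr19:43524606-43524855, minus strand: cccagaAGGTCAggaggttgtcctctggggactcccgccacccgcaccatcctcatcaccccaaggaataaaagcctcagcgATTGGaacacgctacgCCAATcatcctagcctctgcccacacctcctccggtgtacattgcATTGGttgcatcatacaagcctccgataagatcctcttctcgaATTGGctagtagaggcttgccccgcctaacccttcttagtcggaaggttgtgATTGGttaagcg
Gnmt, chr17:46729166-46729415, minus strand: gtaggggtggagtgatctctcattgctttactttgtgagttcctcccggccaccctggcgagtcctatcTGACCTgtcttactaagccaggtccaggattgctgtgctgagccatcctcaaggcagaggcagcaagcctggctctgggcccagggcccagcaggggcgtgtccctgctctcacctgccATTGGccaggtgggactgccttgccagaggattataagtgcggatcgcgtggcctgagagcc
Tat, chr8:109990186-109990435, plus strand: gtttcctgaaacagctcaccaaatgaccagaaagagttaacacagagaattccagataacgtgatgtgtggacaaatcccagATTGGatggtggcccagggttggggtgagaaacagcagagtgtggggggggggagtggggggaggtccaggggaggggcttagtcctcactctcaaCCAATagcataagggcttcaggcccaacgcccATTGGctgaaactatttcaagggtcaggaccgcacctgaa
Agxt, chr1:93134990-93135239, plus strand: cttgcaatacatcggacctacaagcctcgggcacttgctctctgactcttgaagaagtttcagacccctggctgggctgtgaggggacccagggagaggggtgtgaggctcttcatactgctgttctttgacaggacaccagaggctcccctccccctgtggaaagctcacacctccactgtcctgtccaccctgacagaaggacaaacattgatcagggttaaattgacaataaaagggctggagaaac
Amt, chr9:108296655-108296904, plus strand: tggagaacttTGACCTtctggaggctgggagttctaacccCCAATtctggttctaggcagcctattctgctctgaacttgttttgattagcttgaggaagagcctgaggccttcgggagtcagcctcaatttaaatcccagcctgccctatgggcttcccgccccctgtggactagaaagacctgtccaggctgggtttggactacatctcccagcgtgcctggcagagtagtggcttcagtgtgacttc

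The *Got1* window held 5 matches to CCAAT and 1 to AGGTCA, that of *Tat* 3 and 0, that of *Gnmt* 1 and 1, that of *Agxt* 0 and 0, and that of *Amt* 1 and 1. The *Amt* window thus held both motifs and that of *Agxt* neither, and so few windows cannot tell whether a motif goes with the diet effect. RefSeq held windows for 32 of the 39 genes, 34 in all. CCAAT was in 23 of the 34 (67.6%), beside 34.7% of 15703 windows of tested genes and 33.8% of all 32851 windows. AGGTCA was in 12 (35.3%), beside 11.8% of windows of tested genes. Shares for TATAAA (the TATA box) were 11.8% against 7.36% of windows of tested genes, for TTGCNNAA (a form of the C/EBP site) 14.7% against 8.19%, for TGTTCT (a steroid receptor half-site) 8.82% against 11.7%, and for TGACG (a cAMP response half-site) 8.82% against 24.2%. None of these 6 motifs contains another. The shares are descriptions, and binding was not measured in these livers.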

How the data were processed

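Poly(A) RNA from whole mouse livers was sequenced in 24 libraries. The deposited values are whole-number counts per Ensembl gene for each library, made by the authors with no scaling. Per the labels' processing notes they used bcl2fastq, STAR 2.7.3a and mm10. The counting program, annotation and strand setting for these mouse counts are not given in the sources used here. IDs were paired with symbols by Ensembl ID, and IDs without one held 0.0723% of counts. Libraries of one diet differed by more than counting noise, so none was counted as a duplicate. Nothing says whether libraries came from separate animals, so p-values measure the spread between these libraries.

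Counts were tested in edgeR 4.0.16 (TMM, quasi-likelihood, R 4.3.3) on genes detected (1 count or more) in 12 or more libraries (6 within a set of 12), with no covariate, and adjusted by Benjamini-Hochberg over all genes tested. Calls followed the thresholds of the study, 0.01 on the adjusted p and 0.5 on the size of the log2 fold change. Depth was 14468418 to 22112552 counts, at which 3 counts are about 0.154 to 0.162 CPM. TMM factors were 0.994 to 1.34 in FFD and 0.679 to 1.01 in control. Library sets were split at 1000 *Xist* counts, and the diet-by-set interaction was judged at 0.05 on the adjusted p. Alternatives were DESeq2 1.42.0, limma-voom (limma 3.58.1), other scalings, filters and thresholds, the set as a covariate, each set alone, a replicate block, and each library left out. Leaving out control replicates 10 and 11 together was chosen after seeing the data. The fits were also run on simulated counts, with means, depths and dispersions taken from the fit of the real counts. There 200 genes drawn at random from all those tested were changed. The rule recovered 26.3% of genes changed 1.5-fold and 54.1% of those changed 2-fold, and it called 1 unchanged gene. The genes drawn were of any abundance, so these rates are not those of the 39. A gene not called may still have changed. All 39 genes are named. Levels per library are given for every called gene and for a few uncalled ones. Of the other pathway genes, those called are named, with *Phgdh*, named after its value was seen. A pair of other pathway genes is not reported here. The members, the gene lists and the tests were chosen with earlier results of these data known.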

Additional observations from a re-analysis of the deposited data

Results flagged for a closer look

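The diet effect differed between the library sets for 19 of the 39 genes, by the interaction test in edgeR at an adjusted p of at most 0.05, beside 10.2% of all genes. Each value is the log2 effect in libraries with *Xist* below 1000 counts minus that above 1000. *Oat* (−1.85), *Prodh* (−1.19), *Prodh2* (−0.78), *Bhmt* (−1.16), *Gnmt* (−1.28), *Ahcy* (−0.79) and *Amt* (−0.70) act on proline, ornithine, methionine or glycine. *Haao* (−1.27), *Kynu* (−0.89), *Afmid* (−0.86) and *Kmo* (−0.57) belong to tryptophan breakdown, *Hpd* (−0.94) and *Fah* (−0.67) to tyrosine, and *Hal* (−0.61) and *Ftcd* (−0.60) to histidine. *Ivd* (−0.59), *Dbt* (−0.59), *Mccc2* (−0.49) and *Gcdh* (−0.61) act on branched-chain amino acids or lysine. Adjusted p ran from 0.000483 for *Prodh* to 0.0483 for *Hal*. With library totals 5 of the 19 passed, *Bhmt*, *Haao*, *Kynu*, *Oat* and *Prodh*, where 17.9% of all genes did. The sets differ in *Xist* and in the Y-linked *Ddx3y*, and whatever else differs between them cannot be told apart from these.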

How the results depend on the processing

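The count of 17 genes lower was 14 to 19 with 1 library left out in turn, and 14 of the 17 kept their call in all 24 such fits. It was 7 with library totals, 4 with hepatocyte marker scaling, 3 and 29 in the libraries with *Xist* above and below 1000 counts, 30 at an adjusted p of at most 0.05 with no fold threshold, and 4 at a log2 fold change over 1. The count of 0 higher became 2 (*Amt* and *Bckdhb*) with hepatocyte scaling and was 0 to 0 with 1 library left out. Among other pathway genes, the 12 lower became 4 with library totals, 0 with hepatocyte scaling, 0 and 27 with *Xist* above and below 1000 counts, 32 at 0.05 and 0 at a log2 fold change over 1 (11 to 14 with 1 library left out). The 6 higher became 11, 18 and 3 with library totals, hepatocyte scaling and *Xist* above 1000 counts, and 10 at 0.05 (5 to 7 with 1 library left out). The 19 interactions became 5 with library totals and 6 at an adjusted p of at most 0.01 (13 to 26 with 1 library left out). DESeq2, limma-voom, DESeq2 size factors, both other filters and the set as a covariate stayed within 1.5 times of each lower or higher count. *Tdo2* was lost by all of these fits but the covariate, *Sdsl* by limma-voom and *Kynu* with the covariate. *Hpd* (DESeq2, covariate), *Prodh* (limma-voom, covariate) and *Afmid* (covariate) were gained. DESeq2 and the covariate were not run for the interaction. It passed for 18 genes by limma-voom, 17 with DESeq2 size factors, 15 without the filter and 22 by filterByExpr. The cause of these moves was not tested.

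Libraries of both diets share replicate numbers, which were not treated as pairs. Deviations of same-numbered libraries from their diet means correlated at 0.109 to 0.359, but at −0.0877 for number 9, and 5 of 24 libraries correlated best with their own number. Same-numbered libraries also share a library set, so the correlations cannot tell pairing from the shared set. With a replicate block 16 genes were lower and 0 higher, 14 of them shared with the 17, with *Afmid* and *Hpd* gained and *Kynu*, *Sdsl* and *Tdo2* lost. Other pathway genes gave 11 lower and 6 higher, and 14 interactions passed.

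With hepatocyte scaling the log2 fold change turned positive for 22 genes: *Hgd* 0.25, *Gstz1* 0.13, *Fah* 0.17, *Tdo2* 0.10, *Kmo* 0.26, *Kynu* 0.025, *Gldc* 0.26, *Amt* 0.53, *Sdsl* 0.11, *Prodh* 0.0045, *Aldh4a1* 0.42, *Uroc1* 0.11, *Amdhd1* 0.20, *Bhmt* 0.28, *Cbs* 0.12, *Bckdha* 0.31, *Bckdhb* 0.58, *Ivd* 0.10, *Mccc1* 0.44, *Mccc2* 0.36, *Gcdh* 0.28 and *Gpt* 0.20. With library totals it did for *Amt* 0.28, *Aldh4a1* 0.13, *Bhmt* 0.055, *Bckdha* 0.033, *Bckdhb* 0.28, *Mccc1* 0.14, *Mccc2* 0.078 and *Gcdh* 0.0055. In the libraries with *Xist* above 1000 counts it did for *Amt* 0.33, *Oat* 0.090, *Prodh* 0.036, *Aldh4a1* 0.092, *Bhmt* 0.36, *Bckdhb* 0.10, *Mccc2* 0.034 and *Gcdh* 0.018. *Amt* also turned by DESeq2 (0.0004), limma-voom (0.005), DESeq2 size factors (0.0003), no filter (0.0063), filterByExpr (0.0002), the replicate block (0.0013) and without control replicates 10 and 11 (0.047). *Bckdhb* did by DESeq2 (0.0034), size factors (0.0019), no filter (0.0066), filterByExpr (0.0008) and without those controls (0.033). With 1 library left out *Amt* ran from −0.055 to 0.063 and *Bckdhb* from −0.026 to 0.034.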
